A study of Mus musculus with 6 samples.

Results

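HOX genes encode homeodomain transcription factors that lie in 4 clusters, and most of their products bind DNA together with partners of the Pbx, Meis and Pknox families. The genes were taken from the deposited table by symbol: every row naming a single gene of a Hoxa, Hoxb, Hoxc or Hoxd cluster, or a gene of the Pbx, Meis or Pknox families. This gave 48 genes, 39 HOX genes and 9 cofactors, of 22001 symbols in the table, and each of the 48 stood on 1 row of its own.

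The study sequenced polyA RNA from mammary tumors of FVBN female mice aged 7 weeks, after a step that enriched epithelial cells. All mice were PyMT, that is, their tumors are driven by the middle T oncogene of polyomavirus. The labels give 3 control tumors and 3 tumors of PyMT Elp3 cKO mice, in which MMTV-CRE deletes Elp3 (the MMTV promoter drives Cre in mammary epithelium). Each tumor came from a different mouse, tumors were matched for size, and the deposited unit is FPKM, a fragment count corrected for transcript length and sequencing depth. All groups share the oncogene, the strain, the sex and the enrichment step.

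The table read here holds no separate values for the genotypes. Control and Elp3 cKO columns of the same number were identical in all 24308 rows, 0 rows differing, so the 6 columns are 3 distinct profiles that each carry both labels. They are called profiles 1, 2 and 3 and were counted once each. No difference between genotypes was tested, and the values below are levels per profile. Depth is unknown from FPKM, so no counting interval is given. Epithelial markers were abundant, the 10 listed luminal genes summing to between 10176 and 10958 FPKM. Fibroblast markers summed to 79.0, 170 and 267 FPKM in profiles 1, 2 and 3, and the 7 salivary genes to 5.44, 9.77 and 989 FPKM, of which Prol1 was highest in profile 2.

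HOX genes pattern the body axis: genes at the 3′ end of a cluster (low paralog numbers) are used early and anteriorly, and genes at the 5′ end later and posteriorly. In the mouse mammary gland, Hoxc6 and Hoxc8 are known from early gland formation, and Hoxa9, Hoxb9 and Hoxd9 together from expansion of the gland in pregnancy. Pbx proteins bind DNA beside HOX proteins, Meis and Pknox proteins join them and help keep Pbx in the nucleus, and all of these cofactors also act with partners that are not HOX proteins.

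The sequences upstream of a few of these genes are given as examples, and their part in the levels below was not tested. They are the 250 bases before the annotated start, from RefSeq (GRCm38.p6), read 5′ to 3′ on the strand of the gene. Pbx2 is the cofactor with the highest mean and Hoxa2 shares its paralog group with Hoxb2, the HOX gene with the highest mean. Hoxb2 itself has no promoter in the RefSeq set used. Hoxb4, the next highest HOX gene, and Hoxb1, listed at 0, were added after their levels were seen. Capitals mark matches, on either strand, to TGATTNAT, a motif bound by Pbx and HOX proteins together, or TGACAG, a motif bound by Meis and Pknox proteins.
Pbx2, chr17:34592009-34592258, plus strand: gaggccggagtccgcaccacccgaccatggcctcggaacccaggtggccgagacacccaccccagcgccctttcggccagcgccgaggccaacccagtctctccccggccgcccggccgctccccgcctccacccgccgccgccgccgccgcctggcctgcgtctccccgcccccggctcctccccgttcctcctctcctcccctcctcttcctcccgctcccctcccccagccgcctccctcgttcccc
Hoxb4, chr11:96318017-96318266, plus strand: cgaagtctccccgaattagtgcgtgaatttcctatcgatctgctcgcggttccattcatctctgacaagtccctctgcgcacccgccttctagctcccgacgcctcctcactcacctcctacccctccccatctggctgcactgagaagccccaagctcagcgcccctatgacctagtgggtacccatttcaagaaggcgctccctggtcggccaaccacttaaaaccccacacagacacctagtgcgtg
Hoxb1, chr11:96365508-96365757, plus strand: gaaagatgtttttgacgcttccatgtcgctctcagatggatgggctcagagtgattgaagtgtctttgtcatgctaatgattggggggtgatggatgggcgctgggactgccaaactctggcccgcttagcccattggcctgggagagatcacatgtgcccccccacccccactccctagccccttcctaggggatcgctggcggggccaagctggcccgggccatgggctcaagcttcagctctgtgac
Hoxa2, chr6:52164832-52165081, minus strand: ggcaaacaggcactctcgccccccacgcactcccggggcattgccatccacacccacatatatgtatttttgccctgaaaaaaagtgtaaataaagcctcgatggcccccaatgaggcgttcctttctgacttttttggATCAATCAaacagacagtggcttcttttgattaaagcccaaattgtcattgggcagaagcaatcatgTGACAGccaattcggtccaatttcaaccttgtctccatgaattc

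The Pbx2 stretch held 27 CpG dinucleotides and 77.6% G and C. The Hoxb4 stretch held 14 CpG and 58.0% G and C, the Hoxb1 stretch 7 and 59.2%, and the Hoxa2 stretch 6 and 46.4%. Hoxa2 was the one of these 4 with matches to the motifs as written, 1 to each. Near matches were not counted, such as tgatggat in the Hoxb1 stretch, which differs from TGATTNAT at 1 base. Over the 24 promoters of 22 HOX genes in the RefSeq table, 2 held TGATTNAT and 2 held TGACAG. Over all 32851 promoters of the table, the shares were 2.82% and 15.9%. HOX promoters had a median of 12.5 CpG against 6 over all promoters. The median was 10 CpG for the 8 promoters of HOX genes at a mean of 0.1 FPKM or more, 19 for the 12 of genes above 0 and below that level, and 11.5 for the 4 of genes listed at 0. A motif match is a run of letters, not a site, and a promoter in this window says nothing of enhancers.

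HOX transcripts were scarce in these tumor cells, while several of their cofactors were not. Of the 39 HOX genes, 1 had a mean of 1 FPKM or more, where the share over all symbols was 49% and over symbols of RefSeq protein-coding genes 54.5%. Of the 9 cofactors, 6 did, which is not far from those shares, and Meis2, Pknox2 and Pbx4 were under 1 FPKM in every profile. Summed over all 39 genes, HOX levels came to 7.46, 8.81 and 6.51 FPKM in profiles 1, 2 and 3. Pbx2 alone was above that sum in every profile. In bulk RNA, few cells with much of a transcript and many cells with little cannot be told apart.

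**Figure D1:**
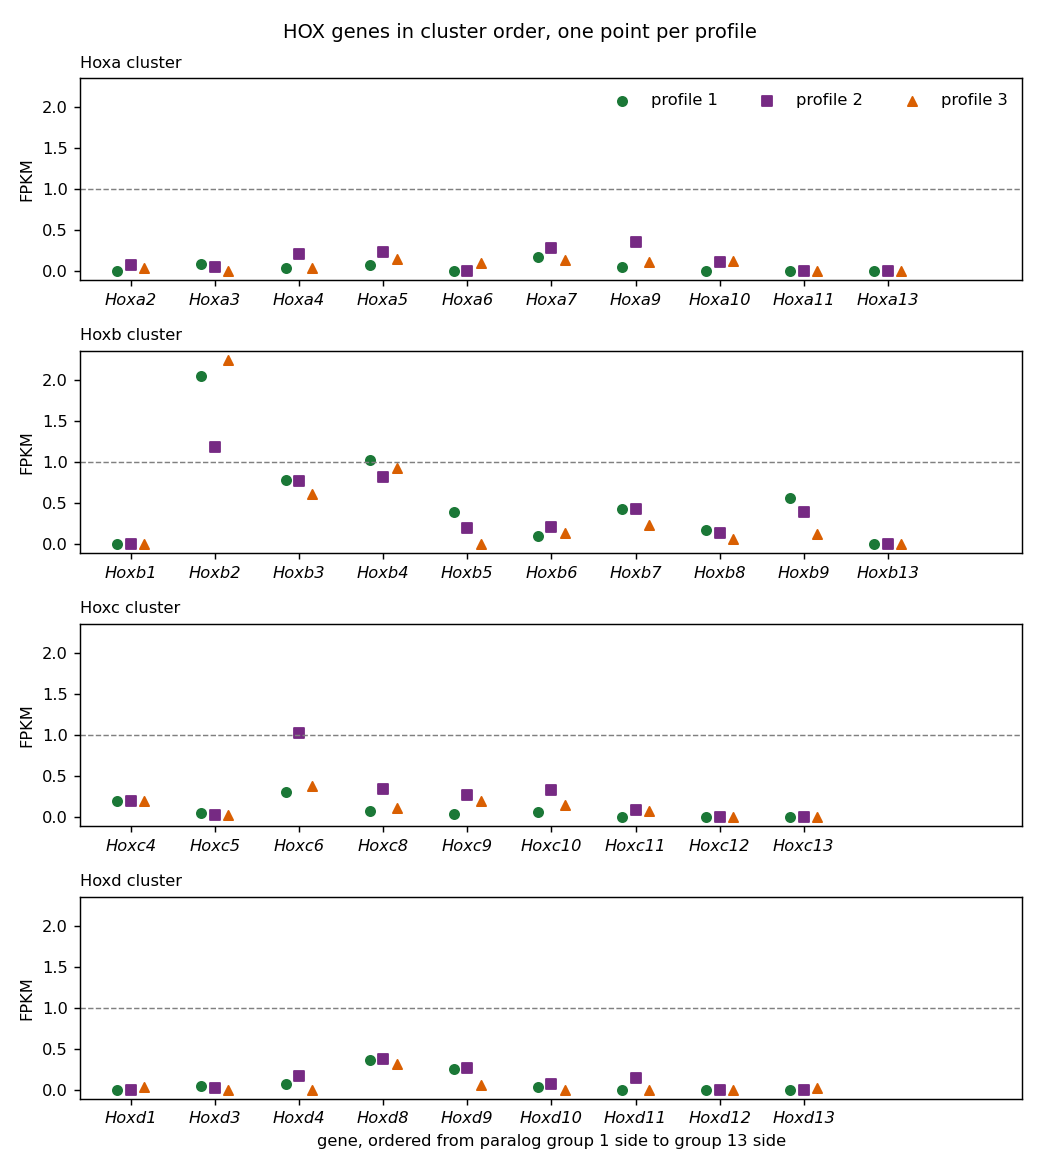
FPKM (linear axis) of 38 of the 39 HOX genes in each of the 3 profiles, 1 panel per cluster, genes ordered by paralog group, with a dashed line at 1 FPKM. Hoxb2 stands at 2.05, 1.19 and 2.24 FPKM, above the line in every profile, while Hoxb4 in profile 1 and Hoxc6 in profile 2 cross it in a single profile each.

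The Hoxb cluster (chromosome 11, 96194361 to 96368253 in mm10, 10 genes) held the largest part of the HOX signal in every profile. Its share of summed HOX FPKM was 73.7%, 46.8% and 66.0% in profiles 1, 2 and 3. Hoxb2, which is known from patterning of the hindbrain, stood at 2.05, 1.19 and 2.24 FPKM and was the HOX gene with the highest level in all profiles. Profile 2 was its low one, 1.88-fold below profile 3. Hoxb4, known as a factor of blood stem cell expansion, stood at 1.03, 0.816 and 0.926 FPKM, and Hoxb3, its neighbour, at 0.777, 0.762 and 0.605 FPKM. The ranges of Hoxb2, Hoxb4 and Hoxb3 did not overlap, in that falling order. Together these 3 adjacent genes made up 51.7%, 31.4% and 57.9% of the HOX sum.

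Levels fell away on either side of that stretch. Hoxb1, the next gene at the 3′ end, was listed at 0 in all profiles, as was Hoxb13, which lies apart at the 5′ end of the cluster. Hoxb5 stood at 0.389, 0.200 and 0 FPKM and Hoxb6 at 0.102, 0.201 and 0.129 FPKM. Hoxb7 stood at 0.426, 0.422 and 0.226 FPKM, and Hoxb8 at 0.171, 0.139 and 0.0598 FPKM. Hoxb9, one of the paralog group 9 genes known from gland expansion in pregnancy, stood at 0.556, 0.391 and 0.117 FPKM. Of the 8 Hoxb genes above 0, 6 were highest in profile 1 and 5 were lowest in profile 3. Over all symbols above 0 with a mean under 1 FPKM, the class of all of these but Hoxb2, the shares were 26.2% and 25.7%.

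The Hoxc cluster (chromosome 15, 102921131 to 103036852, 9 genes) was next. It made up 9.28%, 25.5% and 16.9% of the HOX sum. Hoxc6, known from the earliest mammary placodes, stood at 0.301, 1.03 and 0.375 FPKM. Profile 2 was its high one, 3.41-fold above profile 1. Hoxc8, which acts in placing the mammary line, stood at 0.0663, 0.340 and 0.112 FPKM, Hoxc9 at 0.0389, 0.261 and 0.192 FPKM, and Hoxc10 at 0.0548, 0.331 and 0.142 FPKM. All 4 were lowest in profile 1 and highest in profile 2. Hoxc11 followed the same order at 0, 0.0783 and 0.0669 FPKM. Hoxc4 did not vary, at 0.190, 0.191 and 0.191 FPKM, and Hoxc5 was at most 0.0414 FPKM. Hoxc12 and Hoxc13 were listed at 0 in all profiles.

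The Hoxa cluster (chromosome 6, 11 genes) had no gene above 0.361 FPKM. Hoxa9, a gene known from leukemia as a partner of Meis1, was its highest value, at 0.0463, 0.361 and 0.109 FPKM, profile 2 being the high one. Hoxa7 stood at 0.177, 0.279 and 0.135 FPKM. Hoxa5, a regulator of lung and mammary epithelium, stood at 0.0744, 0.236 and 0.145 FPKM. The rows of Hoxa3, Hoxa4, Hoxa5 and Hoxa6 carry the same span, 52169062 to 52213597, so their levels depend on how the authors' software shared out the reads. Hoxa4 was at most 0.213 FPKM, Hoxa10 at most 0.124, and Hoxa2, Hoxa3 and Hoxa6 were each under 0.1 FPKM in all profiles. Hoxa11 and Hoxa13 were listed at 0.

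The Hoxd cluster (chromosome 2, 74668310 to 74765142, 9 genes) made up 10.0%, 11.8% and 6.41% of the HOX sum. Hoxd8 stood at 0.360, 0.368 and 0.316 FPKM and Hoxd9 at 0.249, 0.269 and 0.0512 FPKM, so that these neighbours made up most of its level. Hoxd4 stood at 0.0666, 0.169 and 0 FPKM, and shares its span with Hoxd3, which was at most 0.0409 FPKM. Hoxd10, a gene whose loss in mice impairs lactation, was at most 0.0713 FPKM, and Hoxd11 was above 0 in profile 2 alone, at 0.138 FPKM. Hoxd1 and Hoxd13 were above 0 in profile 3 alone, at 0.0292 and 0.0213 FPKM, and Hoxd12 was listed at 0.

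**Figure D2:**
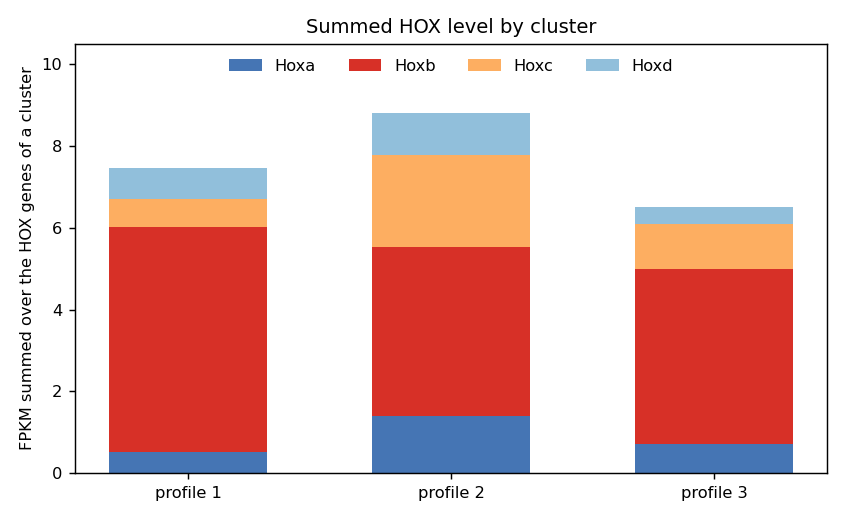
FPKM summed over the HOX genes of each cluster (stacked bars starting at 0), 1 bar per profile. The Hoxb segment is the largest in every bar, at 5.499, 4.12 and 4.30 FPKM, and the Hoxc segment is 0.693, 2.25 and 1.10 FPKM.

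Of the 7 HOX genes listed at 0 in all profiles, 6 lay in paralog groups 10 to 13, and the count is small. All 15 genes of paralog groups 4 to 8 were above 0 in at least 1 profile, and so were 7 of the 8 genes of groups 1 to 3. Of the 16 genes of groups 9 to 13, 6 were listed at 0 in all profiles, all of them among the 12 genes of groups 10 to 13. Those 12 genes together summed to 0.0871, 0.734 and 0.354 FPKM. Over all 39 HOX genes, 7 were listed at 0 in every profile, a share near the 22.1% of protein-coding symbols, and 20 were above 0 in every profile. By paralog group, group 2 had the highest sum in profiles 1 and 3, at 2.05 and 2.27 FPKM. In profile 2 group 4 was highest at 1.39 FPKM, with group 9 at 1.28 and group 2 at 1.26.

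The order of the low genes should not be read closely. Of the 31 pairs of HOX genes next to each other in the order of their means, 28 had overlapping ranges over the profiles. Steps of the values set a limit as well. Among rows under 0.15 FPKM in profiles 2 and 3, the commonest ratio of profile 2 to profile 3 was 1.17, holding 24.2% of 1379 rows. Of the 24 members under 1 FPKM and above 0 in both of these profiles, 7 had a ratio of 1, 2 or 3 times that step within a tolerance of 0.01. The ratio was 1.17 for Hoxd8, Hoxc5 and Hoxc11, and 2.33 for Hoxa2, Hoxb8 and Hoxc10.

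Summed FPKM was highest in profile 2 for Hoxa, Hoxc and Hoxd, and in profile 1 for Hoxb. Outside Hoxb, 16 of the 24 HOX genes above 0 were highest in profile 2, 4 in profile 1 and 4 in profile 3. Among the 16, Hoxd8 and Hoxc11 stood above profile 3 only by the ratio of 1.17 given above as the commonest step. Over all symbols above 0 with a mean under 1 FPKM, 39.2% were highest in profile 2, 26.2% in profile 1 and 34.7% in profile 3. None of the 24 genes was lowest in profile 2 alone, while 10 were lowest in profile 1 and 10 in profile 3 (ties left out), where the shares over all such symbols were 19.6%, 33.2% and 25.7%. Without Hoxb2 to Hoxb4, the other 36 HOX genes summed to 3.61, 6.04 and 2.75 FPKM. Markers of other cells differed between the profiles too. All 10 fibroblast markers were lowest in profile 1, against 40.1% of all symbols at a mean of 1 FPKM or more. Of these 10 markers, 6 were highest in profile 3, among them decorin (Dcn) at 18.2, 54.4 and 66.8 FPKM. The other 4 were highest in profile 2, among them the fibroblast receptor Pdgfra at 3.62, 10.9 and 9.00 FPKM. Endothelial markers summed to 44.7, 42.7 and 19.1 FPKM, and basal and myoepithelial markers to 534, 688 and 645 FPKM. Of the 10 basal and myoepithelial markers, 4 were highest in profile 2, among them Krt14, which led the sum. The other 6 were highest in profile 3, among them Acta2 at 18.5, 34.3 and 74.0 FPKM. No fibroblast marker was at 0 in any profile. The part of such cells in the HOX levels was not tested.

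Among the cofactors, Pbx2 had the highest mean. It stood at 14.3, 14.4 and 18.8 FPKM and was highest in profile 3. Pbx3 was lower, at 1.85, 2.05 and 1.78 FPKM. Pbx4, which in mice is used mainly in the testis, stood at 0.113, 0.443 and 0 FPKM.

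Pknox1, also called Prep1, stood at 8.52, 6.77 and 6.36 FPKM. Its paralog Pknox2 stood at 0.199, 0.158 and 0.347 FPKM. Meis1, the partner of Hoxa9 in leukemia, stood at 6.10, 5.43 and 6.60 FPKM, and Meis3 at 4.39, 5.95 and 3.84 FPKM. The ranges of Pknox1 and Meis1 overlapped, as did those of Meis1 and Meis3. Meis2 stood apart from its paralogs at 0.270, 0.532 and 0.658 FPKM. Each family thus held members above 1 FPKM in every profile and a member below 1 FPKM in every profile.

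**Figure D3:**
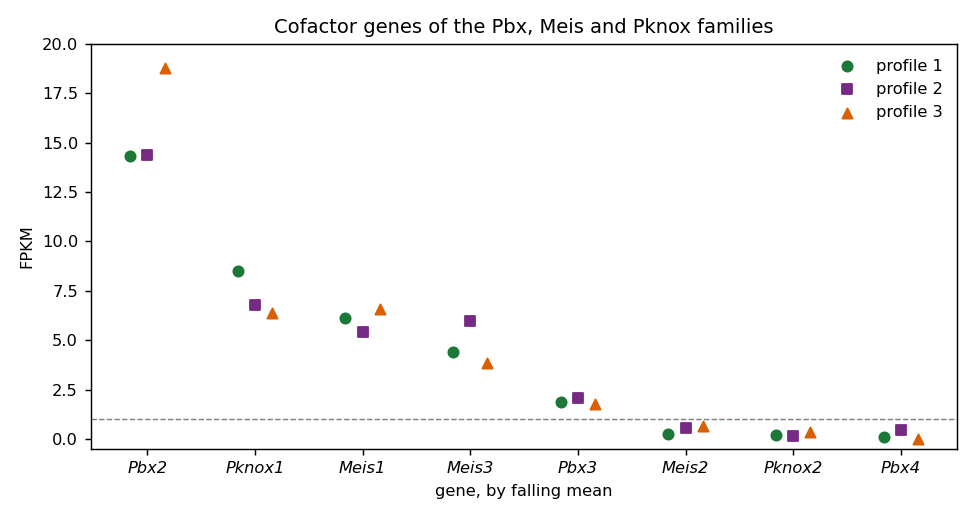
FPKM (linear axis) of 8 of the 9 cofactor genes in each of the 3 profiles, ordered by mean, with a dashed line at 1 FPKM. Pbx2 lies between 14.3 and 18.8 FPKM, while Meis2, Pknox2 and Pbx4 lie under 1 FPKM in all profiles.

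The 6 cofactors at a mean of 1 FPKM or more differed little between profiles. Their median span on log2(FPKM + 1), where the added 1 shrinks differences between small values, was 0.35. Over all 10770 symbols at that level, the median span was 0.27, and 3.65% spanned 1 or more. None of the 6 did, Meis3 being the widest at 0.52. Hoxb2, the HOX gene at that level, spanned 0.57. Pbx2 and Meis1 were highest in profile 3, Meis3 and Pbx3 in profile 2 and Pknox1 in profile 1. Over all symbols at that level 36.5%, 28.7% and 34.8% were highest in profiles 3, 2 and 1. Pbx2 was lowest in profile 1, where the share over all symbols was 40.1%. Meis1 was lowest in profile 2 (28.3% of symbols), and Pknox1, Meis3 and Pbx3 in profile 3 (31.5%).

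Of 9 other homeobox genes of the TALE class, to which the cofactors belong, 6 had a mean of 1 FPKM or more. That is not far from the 49% over all symbols. Irx4 and Mkx were below that level and Irx6 was listed at 0. Tgif1, a repressor of TGF-beta and retinoid responses, stood at 185, 194 and 233 FPKM, and Irx1 at 128, 124 and 159 FPKM. The 6 ParaHox genes (Gsx1, Gsx2, Pdx1, Cdx1, Cdx2 and Cdx4), the sister genes of the HOX clusters, were all listed at 0. Over protein-coding symbols the share at 0 in all profiles was 22.1%.

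Polycomb complexes are known to hold HOX clusters silent and MLL complexes to keep them active, and transcripts of both groups were measured. Of 27 Polycomb genes measured, 26 had a mean of 1 FPKM or more, with a list median of 15.5 FPKM. The share at that level was 49% over all symbols and 54.5% over symbols of RefSeq protein-coding genes. Phc2, a subunit of Polycomb repressive complex 1, stood at 101, 87.9 and 118 FPKM, and Rbbp7, a histone binder, at 87.5, 88.5 and 81.0 FPKM. All 16 measured genes of the trithorax and MLL list had a mean of 1 FPKM or more, with a median of 16.6 FPKM. Dpy30, an MLL complex subunit, stood at 51.2, 48.9 and 51.3 FPKM, and Kdm6b, which removes the Polycomb mark, at 49.0, 41.2 and 39.9 FPKM. Of 14 genes of retinoic acid, a known inducer of 3′ HOX genes, 9 had such a mean, which is not far from the shares over all symbols. The binding protein Crabp2 stood at 57.6, 80.2 and 110 FPKM, and the synthesis enzyme Aldh1a3 at 43.9, 34.5 and 33.6 FPKM.

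Of 23 measured genes that flank the clusters, 17 had a mean of 1 FPKM or more (49% over all symbols), led by the RNA-binding proteins Hnrnpa3 (448, 564 and 494 FPKM), near Hoxd, and Hnrnpa1 (423, 511 and 472 FPKM), near Hoxc. The homeobox genes Evx1 and Evx2, which adjoin the 5′ ends of Hoxa and Hoxd, were listed at 0, as was Calcoco2, while Skap1, Ttll6 and Nfe2 were under 0.1 FPKM.

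Non-coding RNAs of the clusters were listed at 0 in all profiles in each of the 9 cases that have a named row, among them Hotair in Hoxc and the microRNA genes Mir10a, Mir10b and Mir196b. Short RNAs are poorly captured in polyA libraries, so a 0 there says little. A row with no symbol behaved otherwise. It lies on the 3′ side of Hoxa2 (chromosome 6, 52158427 to 52162288) and stood at 1.38, 1.72 and 0.899 FPKM, above all 11 Hoxa genes in every profile. In GENCODE M21, on the same build, it overlaps Hotairm1, an antisense RNA at 52156902 to 52162119 on the plus strand, and 4 short entries on the same strand. The library kit is not described as keeping strand, so reads of Hoxa genes on the minus strand cannot be told apart there.

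The table also carries a column that the authors headed as a total of FPKM, and for the Hoxb genes it stands above the profiles. In the authors' deposited table that column gives Hoxb2 3.76 FPKM, Hoxb3 1.80 and Hoxb4 1.66, each above the highest of the 3 profiles (2.24, 0.777 and 1.03 FPKM). It was above the highest profile for 7 of the 10 Hoxb genes and for 5 of the 29 other HOX genes. Over all symbols the share was 18.4%, and over symbols above 0 with a mean under 1 FPKM it was 26.4%, with 15.6% at 1 FPKM or more. Of the 31 HOX genes in that class 10 were above, a share near that background, so the count over all HOX genes is no result about them. Among the cofactors 3 of 9 were above, Meis3 and Pbx3 by little and Pknox2 at 0.427 against 0.347 FPKM. The authors' summary was below the highest profile for Pbx2, Pknox1 and Meis1.

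**Figure D4:**
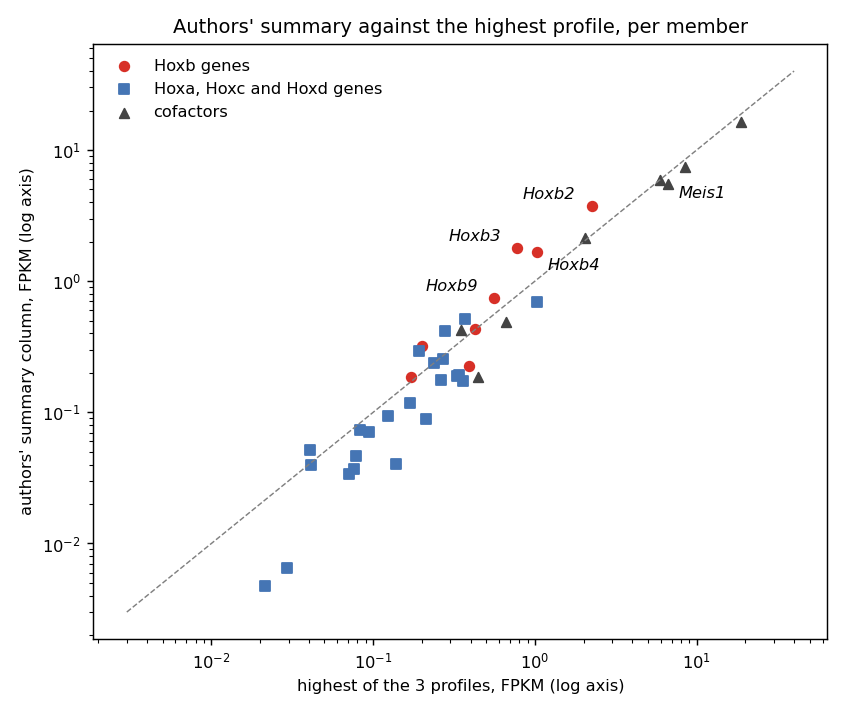
The authors' summary column (FPKM, log axis) against the highest of the 3 profiles (FPKM, log axis) for the genes shown elsewhere that were above 0, with a dashed line where they are equal. Hoxb2, Hoxb3, Hoxb4 and Hoxb9 lie above the line, and Meis1 lies below it.

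The same column moved for markers of other cells. It was above the highest profile for 9 of 10 basal and myoepithelial markers, 7 of 10 endothelial markers, 4 of 10 luminal markers and 0 of 10 fibroblast markers. Summed over the basal list, the authors' summary was 1086 FPKM against 622 for the mean of the profiles. The part of basal or endothelial cells in the Hoxb values of that column was not tested.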

How the data were processed

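PolyA RNA of epithelial cells from 6 mammary tumors was sequenced in pairs of reads, per the labels' protocols. TopHat2 2.0.9, Cufflinks 2.1.1 and Cuffdiff with mm10 are named, without roles, in the submitters' processing notes. No source used here gives the annotation, the filters or the scaling between libraries. FPKM values were deposited by the authors in 1 table with 6 sample columns, which were matched to samples by name (0 without a match), plus their own total. FPKM hides the depth, and having 3 profiles limits precision.

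Same-numbered columns of the genotypes were compared and found identical, so the planned limma fit was not run. Computed instead were levels per profile, sums, shares and spans on log2(FPKM + 1). Per symbol the row with the highest mean was kept, and 1366 rows without a symbol were left out of gene counts. Of the members, 2 enter the counts and sums but are not reported here one by one. The scripts were tested on simulated data. Members, gene lists and rules were chosen with earlier results of these data known. Named in full were members at a mean of 1 FPKM or more and the 2 highest genes of each list other than lists at 0; other members named were chosen after their values were seen. Row starts were raised by 1, after which 42.2% of 19608 symbols had the RefSeq start (GRCm38.p6), against 2.68% without. Promoters came from RefSeq and overlapping genes from GENCODE M21. Alternatives were other minimum levels, median-ratio scaling, quantile normalization, summed rows, another pseudocount and leaving out each profile. Python 3.11.15, pandas 2.3.3, numpy 2.4.6 and matplotlib 3.10.9 were used.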

Additional observations from a re-analysis of the deposited data

Results flagged for a closer look

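The authors' summary column lies outside the 6 sample columns, and for 12 HOX genes it was above the highest of them. In Hoxb, the authors' deposited table gives a summary of 3.76 FPKM for Hoxb2, 1.80 for Hoxb3, 1.66 for Hoxb4, 0.746 for Hoxb9, 0.430 for Hoxb7, 0.322 for Hoxb6 and 0.185 for Hoxb8. Elsewhere it gives 0.512 FPKM for Hoxd8, 0.415 for Hoxa7, 0.294 for Hoxc4 and 0.0519 for Hoxd3. Hoxa11, at 0 in all sample columns, has a summary of 0.0039 FPKM.

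The arithmetic of that column can be read from genes with a single value. Hoxd1 and Hoxd13 were above 0 in profile 3 alone, and their summary was 2 ninths of that value (0.0065 of 0.0292 FPKM, and 0.0047 of 0.0213 FPKM). Over 6491 rows with a summary from 10 to 1000 FPKM, 9 times the summary ended at 4 decimals in 85.4%, against at most 28.5% for other multipliers from 2 to 12. If the column is a mean over 9 values in which each profile stands 2 times, the 3 values not shown had a mean of 7.62 FPKM for Hoxb2, 3.96 for Hoxb3, 3.12 for Hoxb4 and 1.53 for Hoxb9. On that reading the values not shown were 3.78 times the profile mean in the median over the 8 Hoxb genes above 0 and 1.84 times over all 32 HOX genes above 0. The median was 1.37 times over symbols above 0 with a mean under 1 FPKM, with an upper quartile of 2.67 times, and 0.95 times over symbols at 1 FPKM or more. For the 9 cofactors the median was 1.07 times. The subtraction gave a value below 0 in 0 of 24308 rows. Which samples such values would belong to could not be worked out.

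The row with no symbol on the 3′ side of Hoxa2 was not among the named genes, and its mean over the profiles was 1.33 FPKM.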

How the results depend on the processing

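No paired analysis was possible because the control and Elp3 cKO columns that share a number hold the same values. The fit between genotypes and its replicate block were not run for the same reason. Of 70 recomputed values, 58 stayed within the limits set (1.5 times for a count, 1 SD of the profiles for a sum or share, 10% for a span). Many of the 58 could not have moved, so that count is no measure of stability. With so few profiles, leaving 1 out cannot shift the mean of a sum or share by 1 SD. Median-ratio scaling multiplies all genes of a profile alike and so cancels out of the cluster shares. Each HOX and cofactor symbol stood on 1 row, so summing rows left every value as it was. The count of HOX genes at 1 FPKM or more was 1 under either scaling, when the minimum had to be met in every profile, and without each profile. It was 4 at a minimum of 0.5 FPKM and 0 at a minimum of 2 FPKM. The cofactor count was 6, or 5 at a minimum of 2 FPKM. Summed HOX FPKM had a mean of 7.60, between 6.99 and 8.14 without each profile in turn, and the Hoxb share a mean of 62.2%, between 56.4% and 69.9%.

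At 1 FPKM or more the spread rests on Hoxb2 alone, so it moved with the genes taken. Its span of 0.57 on log2(FPKM + 1) was 0.86 with a pseudocount of 0.1 and lay between 0.085 and 0.57 without each profile. The median span was 0.36 at a minimum of 0.5 FPKM and 0.16 over all HOX genes above 0. The number of HOX genes lowest in profile 1 was 0, then 1 at a minimum of 0.5 FPKM and 11 of the 32 above 0. Those 11 are near the share of 33.2% over all symbols above 0 with a mean under 1 FPKM. The number highest in profile 3 was 1, then 0 under quantile normalization and 5 of the 32 above 0. Over all symbols of that low class the share was 34.7%. The remaining alternatives were added after seeing the data. Of the 12 HOX genes whose summary was above the highest profile, 6 were at 1.5 times it or more and 10 were above 0 in every profile. The 6 include Hoxa11, which was at 0 in all profiles and so has no ratio. The count of HOX genes with a summary above the highest profile was 15 without profile 3.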
